A study of Mus musculus with 9 samples.

Results

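Cell division genes were followed in the lungs of mice 24 hours after fungal material was placed in the airway. The group held 47 genes of the 18984 listed per library, picked by symbol for their textbook roles: 14 genes of S phase, 22 of mitosis, 8 cyclins and kinases of G1, and 3 transcription factors. All 47 were found. Of these, 44 reached 1 FPKM in at least 3 of the 9 libraries and were tested among 13761 genes. Bub1, Cenpe and Cenpf, all of the mitosis group, did not reach that level in 3 libraries and are given as values only.

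The animals were C57BL/6 mice, and whole lung was sampled in every case. There were 3 libraries from lungs given hyphal fragments of Aspergillus fumigatus (hyphae), 3 given conidia, its inhaled resting spores (conidia), and 3 given normal saline (control), all by the intratracheal route. No mutant, transgene or immunosuppressive drug is named in the labels. The labels do not say that the libraries of a group came from different animals, so the p-values may measure technical spread alone.

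A cell that divides passes through G1, copies its DNA in S phase and separates the copies in mitosis. D-type cyclins with Cdk4 or Cdk6, then E-type cyclins with Cdk2, phosphorylate the retinoblastoma protein and free E2F factors, which switch on replication genes. Mitotic genes follow later, through B-Myb and FOXM1 at promoters that carry a cell cycle homology region and CCAAT boxes. In the resting adult lung few cells divide, and transcripts of S phase and mitosis mark the small cycling fraction of epithelial, endothelial and immune cells. In bulk tissue, fewer cells of a type and less RNA per cell cannot be told apart.

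Promoter sequences of the S phase and mitosis genes are shown first, because the results set these 2 classes side by side. RefSeq windows of 300 bases, from 250 before to 50 after the start, were on hand for 37 of the 47 members in GRCm38.p6; the FPKM files name mm9, so no position was converted. The search, on both strands, was for the cell cycle homology region TTTGAA, for the CCAAT box CCAAT and for E2F sites written as TTTCCCGC or TTTGGCGC or TTCCCGCC, of which the E2F forms can overlap. TTTGAA stood in 13 of 18 mitosis promoters, in 1 of 12 S phase promoters, that of Mcm2, and in 20.2% of 27025 genes. CCAAT stood in 16 of 18 mitosis promoters and 9 of 12 S phase promoters, against 41.1% of all genes. An E2F form stood in 0 of 18 mitosis promoters and 8 of 12 S phase promoters, against 3.7% of all genes. All 13 mitosis promoters with TTTGAA also held CCAAT. A match is a string of letters and not a shown binding site, and a window without a match does not show that the gene lacks such a site.

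Promoter stretches from 200 bases before to 20 after the start are printed 5′ to 3′ on the gene's strand, with matches on either strand in capitals. Mcm7, an S phase gene, stands for the E2F class, and Top2a and Kif23, mitosis genes, stand for the class with the homology region. Birc5 was added after its values were seen, because it had the largest rise between hyphae and conidia among the members and none of these letters lie in its window; Nusap1, another mitosis gene higher after hyphae than conidia, also has none of them, while Mki67, higher likewise, has both TTTGAA and CCAAT.
Mcm7: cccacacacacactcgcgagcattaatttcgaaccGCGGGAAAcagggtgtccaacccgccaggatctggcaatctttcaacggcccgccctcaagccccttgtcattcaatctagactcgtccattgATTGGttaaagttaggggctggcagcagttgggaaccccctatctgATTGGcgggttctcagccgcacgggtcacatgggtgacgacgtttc
Top2a: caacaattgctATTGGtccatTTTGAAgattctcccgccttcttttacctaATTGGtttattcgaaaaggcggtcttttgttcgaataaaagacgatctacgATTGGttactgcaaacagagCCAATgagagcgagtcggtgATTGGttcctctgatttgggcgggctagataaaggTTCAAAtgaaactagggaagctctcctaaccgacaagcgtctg
Kif23: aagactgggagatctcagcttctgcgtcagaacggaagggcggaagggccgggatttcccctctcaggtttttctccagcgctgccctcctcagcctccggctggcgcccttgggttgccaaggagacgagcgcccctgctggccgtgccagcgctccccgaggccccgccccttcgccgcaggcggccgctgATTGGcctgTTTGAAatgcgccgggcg
Birc5: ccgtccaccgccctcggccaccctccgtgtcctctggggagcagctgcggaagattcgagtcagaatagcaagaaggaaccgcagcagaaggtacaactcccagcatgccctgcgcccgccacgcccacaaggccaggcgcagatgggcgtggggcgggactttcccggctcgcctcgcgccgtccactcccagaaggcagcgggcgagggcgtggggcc
The stretches lie at chr5:138171864-138172083 (minus strand) for Mcm7, chr11:99024170-99024389 (minus strand) for Top2a, chr9:61946780-61946999 (minus strand) for Kif23 and chr11:117849037-117849256 (plus strand) for Birc5. In Mcm7 the E2F match begins 165 bases before the start. In Top2a, homology region matches begin 179 and 23 bases before the start, with CCAAT boxes between them. In Kif23 a CCAAT match begins 7 bases before the start and the homology region match begins 3 bases after it.

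Summed FPKM per library was 492540 to 561250, and the approximate depth was 20300000 to 21100000 fragments. The files hold no counts, so values near 0 carry a counting error that could not be given. FPKM is a share of the library, and the median gene of hyphae libraries stood 0.37 lower than control and 0.29 lower than conidia on the scale of log2(FPKM + 1); conidia stood 0.07 below control. Each comparison was therefore also made after libraries were rescaled by median-of-ratios factors (0.811 to 0.900 in hyphae, 0.995 to 1.131 in conidia and 1.116 to 1.165 in control libraries), which puts the median gene near 0 by construction. Unless stated, differences are on the log2(FPKM + 1) scale, calls are at an adjusted p under 0.05 in limma, and a second value called rescaled follows. The addition of 1 shrinks the differences of genes near or below 1 FPKM, which many mitosis genes are. Replicates are listed in the order 1, 2, 3.

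Hyphal fragments were compared with saline to ask which division genes had moved 1 day after the tissue-invading form was given. Of the 44 members tested, 28 fell and 2 rose. On the scale of log2(FPKM + 1), Mcm7, a subunit of the replicative helicase, E2f2, an E2F transcription factor, and the G1 cyclin Ccnd1 fell the most. The helicase loader Cdt1 and the helicase subunit Mcm4 rose. This scale shrinks the falls of low genes such as Uhrf1 (1.25 FPKM in hyphae, 3.44 in control), so the ranking would differ for ratios of FPKM. The 28 that fell make up 63.6% of the members, against 50.0% of all genes tested, and the 2 that rose make up 4.55%, against 14.9% of all genes. After rescaling, 13 fell (29.5% of members, against 29.3% of all genes) and 7 rose (15.9%, against 30.0%), so the share that fell was then near that of all genes. The members' median difference was −0.59 where all genes had −0.37, and it was −0.31 where all genes had 0 after rescaling. All 3 hyphae libraries lay below all 3 control libraries for 31 members, against 53.4% of all genes, and above them for 4, against 17.3% of all genes.

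**Figure D1:**
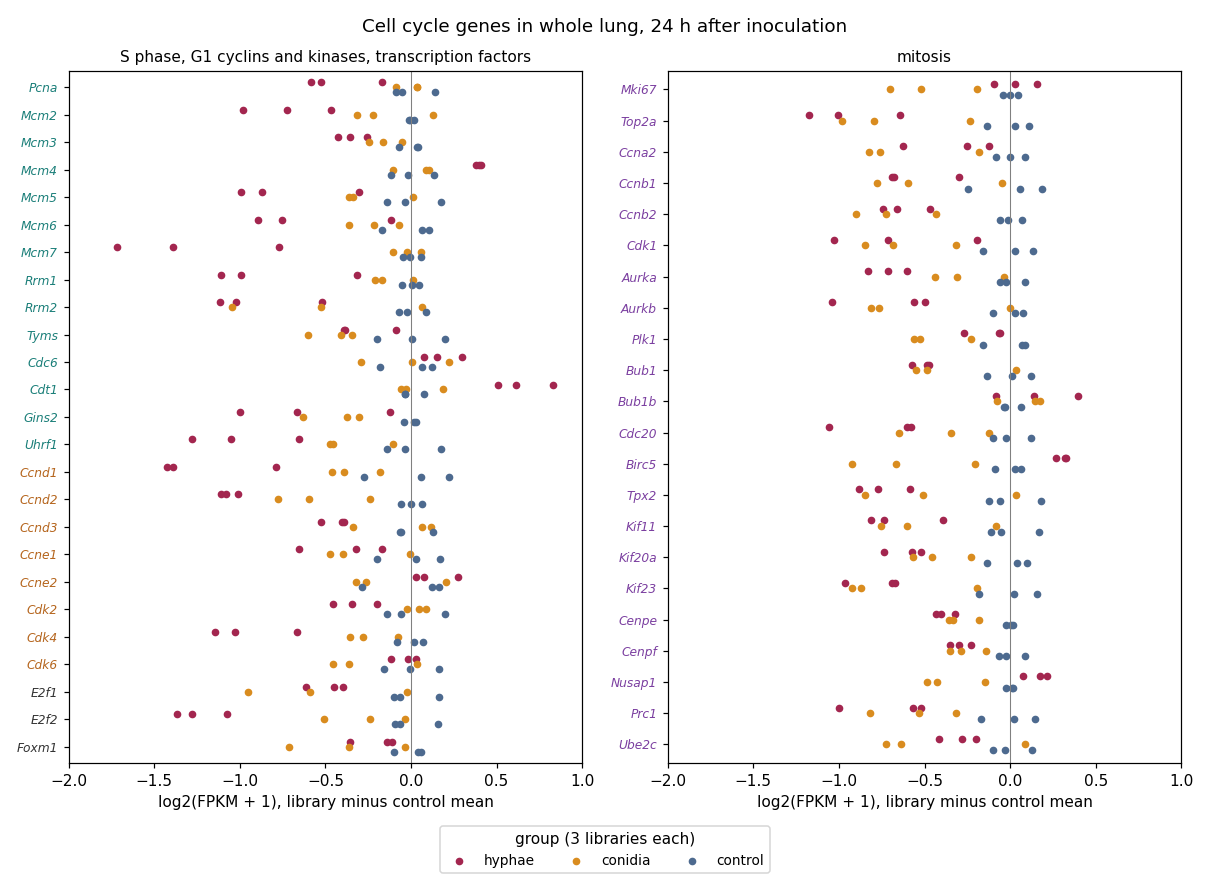
Each point is 1 library; the horizontal axis is log2(FPKM + 1) minus the mean of the 3 control libraries, with hyphae above conidia above control in each gene's row, and label colours mark S phase, G1 and transcription factor genes on the left and mitosis genes on the right. Hyphae points lie left of control for most rows, Mcm4 and Cdt1 lie right of it, and in most mitosis rows 1 conidia point, replicate 2, lies nearer to control than the other two.

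The replicative helicase is a ring of Mcm2 to Mcm7, and its subunits did not move as a block. Mcm7 had 7.65, 4.64 and 3.49 FPKM in hyphae libraries, 12.7, 14.4 and 13.5 FPKM in conidia libraries, and 13.7, 13.3 and 14.4 FPKM in control libraries. The hyphae libraries were all below all others, at 5.26 ± 2.15 FPKM against 13.8 ± 0.538 in control (mean ± SD, n = 3 each), a difference of −1.30 (SE 0.20, adjusted p = 0.000618; rescaled −0.92). Mcm4 had 11.9, 12.2 and 12.1 FPKM in hyphae libraries, 8.21, 9.52 and 9.67 FPKM in conidia libraries, and 8.15, 8.79 and 9.9 FPKM in control libraries. Its hyphae libraries stood above every other library and varied little, at 12.0 ± 0.131 FPKM against 8.95 ± 0.885 in control (n = 3 each), a difference of 0.39 (SE 0.10, adjusted p = 0.00726; rescaled 0.79). Mcm7 fell and Mcm4 rose both before and after rescaling.

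Mcm2 had 4.5, 3.61 and 2.86 FPKM in hyphae libraries, 5.11, 7.3 and 5.53 FPKM in conidia libraries, and 6.58, 6.54 and 6.71 FPKM in control libraries. Mcm5 had 3.66, 1.89 and 2.15 FPKM in hyphae libraries, 3.54, 4.8 and 3.47 FPKM in conidia libraries, and 4.61, 4.22 and 5.49 FPKM in control libraries. Mcm3 had 6.56, 6.18 and 7.08 FPKM in hyphae libraries, 7.16, 8.3 and 7.63 FPKM in conidia libraries, and 8.19, 8.89 and 8.94 FPKM in control libraries. All 3 fell in hyphae lungs with no overlap with control. Mcm2 differed by −0.72 (adjusted p = 0.00337) and kept its call after rescaling (−0.37, adjusted p = 0.0361), Mcm5 differed by −0.72 and lost it (−0.39, adjusted p = 0.0787), and Mcm3 differed by −0.35 but by 0.03 when rescaled (adjusted p = 0.77). Mcm6 had 11.8, 7.22 and 6.46 FPKM in hyphae libraries, 9.79, 12.2 and 10.9 FPKM in conidia libraries, and 13.5, 11.3 and 14 FPKM in control libraries. Hyphae replicate 1 lay within the control range there, and Mcm6 fell by 0.59 (adjusted p = 0.0238; rescaled −0.20, adjusted p = 0.326).

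Loading of the helicase depends on Cdt1 and Cdc6. Cdt1 had 6.15, 7.93 and 6.69 FPKM in hyphae libraries, 3.82, 4.71 and 3.91 FPKM in conidia libraries, and 3.9, 3.89 and 4.28 FPKM in control libraries. Every hyphae library was above every other, at 6.92 ± 0.913 FPKM against 4.02 ± 0.222 in control (n = 3 each), a difference of 0.65 (SE 0.12, adjusted p = 0.00142; rescaled 1.02). Cdc6 was near 1 FPKM in all groups and was called higher only after rescaling (0.18, adjusted p = 0.348; rescaled 0.42, adjusted p = 0.0255). Gins2, a part of the active helicase complex, averaged 2.03 ± 0.952 FPKM in hyphae and 3.44 ± 0.114 in control libraries and fell by 0.60 (adjusted p = 0.0295; rescaled −0.29, adjusted p = 0.208).

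Pcna, the sliding clamp of DNA polymerases, had 47.3, 36.7 and 35.1 FPKM in hyphae libraries, 49.9, 54.5 and 54.6 FPKM in conidia libraries, and 49.9, 51.3 and 58.9 FPKM in control libraries. It fell by 0.43 (adjusted p = 0.014) as deposited and differed by 0.00 after rescaling (adjusted p = 0.975). Ribonucleotide reductase makes the building blocks of DNA from subunits Rrm1 and Rrm2. Rrm1 had 6.69, 3.79 and 3.43 FPKM in hyphae libraries, 8.64, 7.26 and 7.51 FPKM in conidia libraries, and 8.21, 8.59 and 8.88 FPKM in control libraries. Rrm2 had 2.01, 1.13 and 0.99 FPKM in hyphae libraries, 2, 3.51 and 1.09 FPKM in conidia libraries, and 3.26, 3.12 and 3.6 FPKM in control libraries. Both fell as deposited, by 0.81 and 0.89, with no overlap between hyphae and control, and neither call held after rescaling (adjusted p = 0.0646 for Rrm1 and 0.0607 for Rrm2). Uhrf1, which carries DNA methylation through replication, averaged 1.25 ± 0.506 FPKM in hyphae and 3.44 ± 0.503 in control libraries (n = 3 each) and differed by −1 (adjusted p = 0.00145; rescaled −0.72, adjusted p = 0.0052). Tyms, which makes thymidylate, was not called (−0.29, adjusted p = 0.0893; rescaled 0.11). Pseudogenes named for Pcna, Tyms, Ccnb1 and Ccnd3 exist in the mouse, and how reads shared with them were counted is not given, so these 4 values are less certain. In all, 10 of 14 S phase genes fell (71.4%, against 50.0% of all genes) and 2 rose (14.3%, against 14.9%). After rescaling 3 fell (Mcm2, Mcm7 and Uhrf1) and 3 rose (Mcm4, Cdt1 and Cdc6), which is 21.4% each way and below the shares of all genes, 29.3% and 30.0%.

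**Figure D2:**
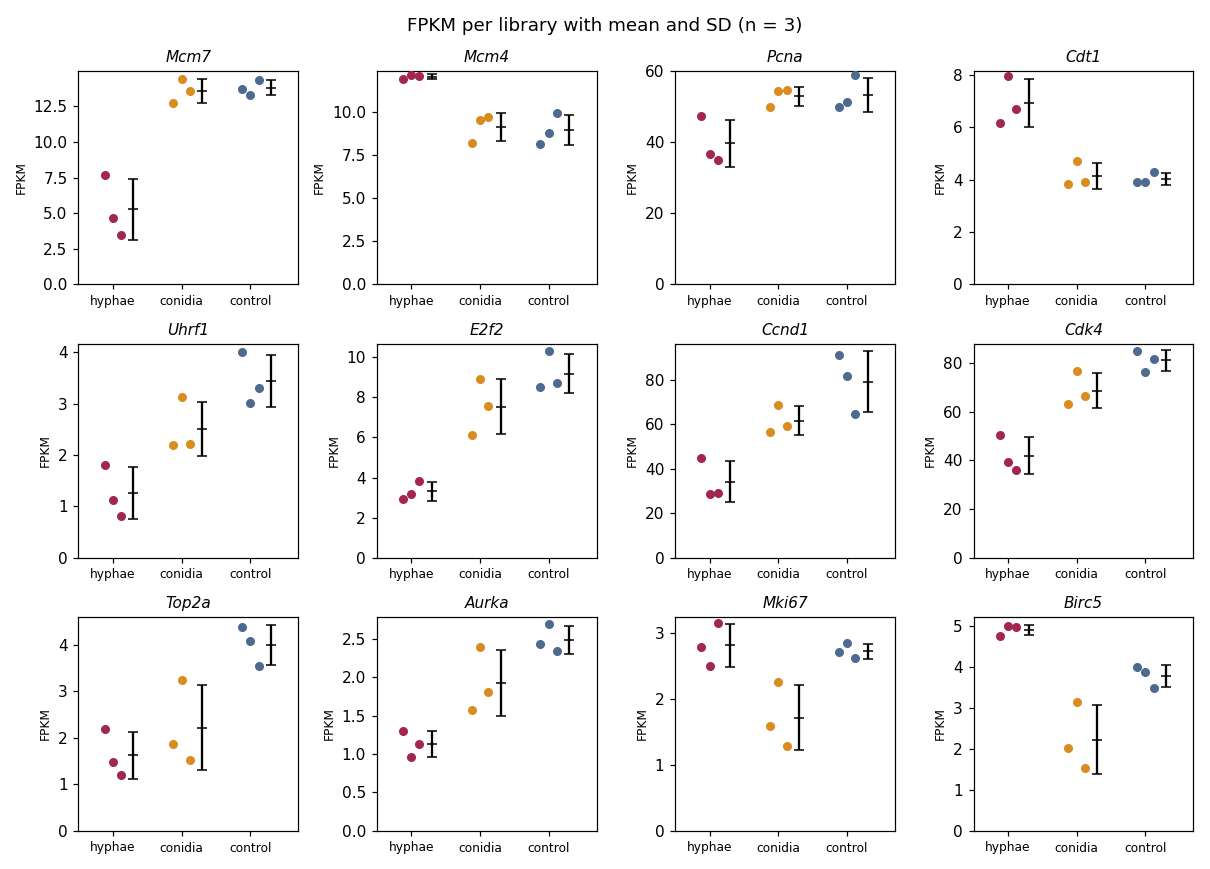
FPKM of 12 members in each library (points), with the mean and SD of the 3 libraries of a group beside them; each vertical axis starts at 0. Mcm7, E2f2 and Aurka were lowest in all hyphae libraries, Mcm4, Cdt1 and Birc5 were highest there, and Mki67 and Birc5 were lower in conidia libraries than in the other 2 groups.

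Top2a, Aurka and Cdc20 were among the mitosis genes that fell on both scales. Of 19 tested, 12 fell as deposited (63.2%, against 50.0% of all genes) and 0 rose (against 14.9%). After rescaling 6 fell (31.6%, near the 29.3% of all genes) and 4 rose (21.1%, against 30.0%). Top2a, the topoisomerase that untangles chromosomes, had 2.19, 1.49 and 1.21 FPKM in hyphae libraries, 1.87, 3.25 and 1.53 FPKM in conidia libraries, and 4.39, 4.08 and 3.54 FPKM in control libraries. It fell to 1.63 ± 0.505 FPKM in hyphae lungs, against 4 ± 0.43 in control lungs (n = 3 each), a difference of −0.94 (SE 0.21, adjusted p = 0.0039; rescaled −0.64, adjusted p = 0.0159). Aurka, a kinase of the spindle poles, had 1.3, 0.96 and 1.13 FPKM in hyphae libraries, 1.57, 2.4 and 1.81 FPKM in conidia libraries, and 2.43, 2.7 and 2.34 FPKM in control libraries. It fell by 0.71 (adjusted p = 0.00156; rescaled −0.45, adjusted p = 0.00773). Cdc20, an activator of the anaphase-promoting complex, had 1.96, 2.01 and 1.16 FPKM in hyphae libraries, 2.54, 3.13 and 1.87 FPKM in conidia libraries, and 3.43, 3.89 and 3.2 FPKM in control libraries. It fell by 0.75 (adjusted p = 0.00524; rescaled −0.45, adjusted p = 0.0484). The spindle assembly factor Tpx2 and the cytokinesis motors Kif20a and Kif23 were the other members of this class that fell on both scales, with rescaled differences of −0.51, −0.41 and −0.49. Ccnb2, the spindle motor Kif11 and the midzone protein Prc1 fell as deposited (by 0.62, 0.65 and 0.70) and were not called after rescaling, and Ube2c, a ubiquitin-conjugating enzyme of mitotic exit, was not called (−0.30; rescaled 0.08).

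The mitotic cyclin Ccnb1 and its kinase Cdk1 had low values. Ccnb1 had 0.77, 0.36 and 0.35 FPKM in hyphae libraries, 0.44, 1.11 and 0.27 FPKM in conidia libraries, and 1.27, 1.48 and 0.84 FPKM in control libraries. Cdk1 had 1.58, 0.8 and 0.45 FPKM in hyphae libraries, 0.84, 1.37 and 0.64 FPKM in conidia libraries, and 2.24, 2.01 and 1.65 FPKM in control libraries. Both fell as deposited (by 0.56 and 0.65, adjusted p = 0.0436 and 0.0288) and were not called after rescaling (adjusted p = 0.121 and 0.119). Ccna2, the cyclin of S phase and G2, had 2.97, 2.63 and 1.81 FPKM in hyphae libraries, 1.44, 2.82 and 1.55 FPKM in conidia libraries, and 3.32, 3.08 and 3.6 FPKM in control libraries. It was below control in every hyphae library but was not called (−0.33, adjusted p = 0.162; rescaled −0.02). Plk1, a kinase of mitotic entry and exit, had 2.6, 2.61 and 2.13 FPKM in hyphae libraries, 1.55, 2.22 and 1.62 FPKM in conidia libraries, and 3.01, 2.95 and 2.38 FPKM in control libraries and was not called on either scale. The kinetochore genes Bub1, Cenpe and Cenpf, which were not tested, averaged 0.317 ± 0.0493, 0.197 ± 0.0473 and 0.177 ± 0.0503 FPKM in hyphae libraries, against 0.88 ± 0.165, 0.563 ± 0.0208 and 0.443 ± 0.0777 FPKM in control libraries (n = 3 each).

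A few mitosis genes stood level with control or above it. Mki67, the nuclear antigen used to count cycling cells, had 2.79, 2.49 and 3.14 FPKM in hyphae libraries, 1.59, 2.25 and 1.29 FPKM in conidia libraries, and 2.71, 2.84 and 2.61 FPKM in control libraries. Hyphae and control overlapped, at 2.81 ± 0.325 against 2.72 ± 0.115 FPKM (n = 3 each), a difference of 0.03 (SE 0.14, adjusted p = 0.864; rescaled 0.35, adjusted p = 0.0474). Birc5 (survivin), a subunit of the chromosomal passenger complex and an inhibitor of apoptosis, had 4.74, 4.98 and 4.96 FPKM in hyphae libraries, 2.01, 3.14 and 1.52 FPKM in conidia libraries, and 3.99, 3.86 and 3.48 FPKM in control libraries. All hyphae libraries were above all control libraries, but the deposited difference of 0.30 was not called (SE 0.17, adjusted p = 0.142), whereas the rescaled one of 0.66 was (adjusted p = 0.00627). Nusap1, a spindle microtubule binder, showed 0.16 (adjusted p = 0.28; rescaled 0.46, adjusted p = 0.00578), and Bub1b, of the spindle checkpoint, 0.15 (adjusted p = 0.38; rescaled 0.42, adjusted p = 0.0394). Aurkb, the kinase that works in one complex with Birc5, averaged 0.667 ± 0.32 FPKM in hyphae and 1.67 ± 0.165 FPKM in control libraries and fell by 0.70 (adjusted p = 0.0252; rescaled −0.49, adjusted p = 0.083).

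**Figure D3:**
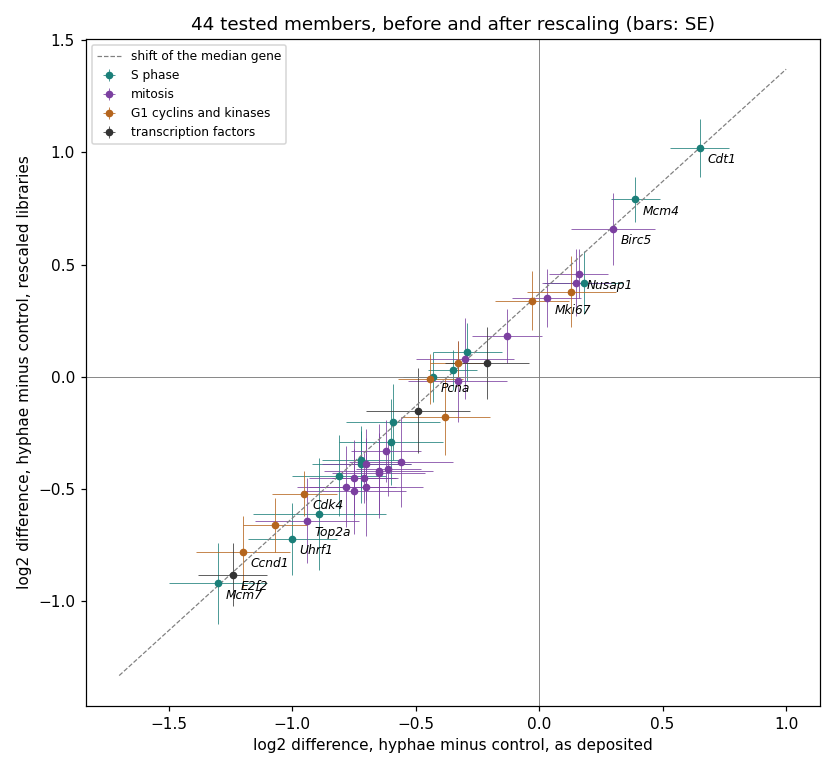
Log2 difference of hyphae minus control for the 44 tested members, as deposited (horizontal) and after median-of-ratios rescaling (vertical), with SE bars; the dashed line is the shift of the median gene, 0.37. Members with higher FPKM lie near this line, so Pcna at −0.43 moves to 0.00, and Mcm7 stays low. Birc5, Mcm4 and Cdt1 stand at 0.66, 0.79 and 1.02 after rescaling. Members near or below 1 FPKM shift less, as for Ccnb1 (−0.56 to −0.38) and Kif20a (−0.61 to −0.41).

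The G1 genes Ccnd3, Cdk4 and Ccnd1, were the most abundant members in control lungs, and they fell the most in FPKM. Ccnd1, which joins growth signals to the cell cycle, had 44.9, 28.5 and 29.2 FPKM in hyphae libraries, 56.7, 68.9 and 59.4 FPKM in conidia libraries, and 91.4, 81.6 and 64.5 FPKM in control libraries. It averaged 34.2 ± 9.25 FPKM in hyphae lungs and 79.2 ± 13.6 FPKM in control lungs (n = 3 each) and fell by 1.20 (SE 0.19, adjusted p = 0.000654; rescaled −0.78, adjusted p = 0.00272). Ccnd2 had 12.3, 12.9 and 12 FPKM in hyphae libraries, 17.6, 22.9 and 15.4 FPKM in conidia libraries, and 27.1, 28.4 and 26 FPKM in control libraries. It fell by 1.07 (SE 0.13, adjusted p = 0.000184; rescaled −0.66, adjusted p = 0.00169) with a narrow spread in both groups. Ccnd3 had 70.7, 65 and 71.4 FPKM in hyphae libraries, 73.9, 98.1 and 102 FPKM in conidia libraries, and 90.1, 103 and 89.6 FPKM in control libraries. It fell by 0.44 as deposited (adjusted p = 0.0155) and differed by −0.01 after rescaling, so of the D-type cyclins it alone lost its call on rescaling.

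Cdk4, the partner of these cyclins, averaged 42.0 ± 7.65 FPKM in hyphae and 81.1 ± 4.26 FPKM in control libraries (n = 3 each) and fell by 0.95 (adjusted p = 0.000371; rescaled −0.52, adjusted p = 0.0026). Its relative Cdk6 averaged 6.04 ± 0.362 FPKM in hyphae and 6.23 ± 0.812 FPKM in control libraries, overlapping, and was not called (−0.03, adjusted p = 0.848; rescaled 0.34, adjusted p = 0.0547). Cdk2 fell by 0.33 as deposited (adjusted p = 0.0269) and differed by 0.06 rescaled. Ccne1 had 1, 0.43 and 0.8 FPKM in hyphae libraries, 0.71, 1.24 and 0.62 FPKM in conidia libraries, and 1.53, 0.96 and 1.3 FPKM in control libraries. Ccne2 had 1.76, 1.32 and 1.4 FPKM in hyphae libraries, 0.9, 1.62 and 0.82 FPKM in conidia libraries, and 1.48, 0.87 and 1.55 FPKM in control libraries. Neither E-type cyclin was called on either scale. Of the 8 G1 genes, 5 fell as deposited (62.5%, against 50.0% of all genes) and 3 (Ccnd1, Ccnd2 and Cdk4) after rescaling (37.5%, against 29.3%). On neither scale did one rise, against 14.9% of all genes as deposited and 30.0% rescaled.

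E2f2 had 2.93, 3.18 and 3.81 FPKM in hyphae libraries, 6.13, 8.9 and 7.59 FPKM in conidia libraries, and 8.52, 10.3 and 8.71 FPKM in control libraries. Its hyphae libraries averaged 3.31 ± 0.453 FPKM against 9.18 ± 0.977 FPKM in control (n = 3 each), a difference of −1.24 (SE 0.14, adjusted p = 0.000154; rescaled −0.88, adjusted p = 0.000685). E2f1 had 3.15, 3 and 2.56 FPKM in hyphae libraries, 1.82, 4.37 and 2.62 FPKM in conidia libraries, and 4.22, 5.11 and 4.1 FPKM in control libraries and was below control in all hyphae libraries without a call (−0.49, adjusted p = 0.0715; rescaled −0.15). Foxm1, the factor of late cell cycle genes, had 1.46, 1.51 and 1.12 FPKM in hyphae libraries, 1.11, 1.65 and 0.66 FPKM in conidia libraries, and 1.83, 1.54 and 1.79 FPKM in control libraries and was not called (−0.21, adjusted p = 0.317; rescaled 0.06). Only E2f2 of these factors fell on both scales.

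Conidia were compared with the same 3 control libraries to ask what resting spores did to these genes. No member was called in either direction in limma, where 0.596% of all genes rose and 0.0945% fell; after rescaling the figures were again 0 members, with 0.298% of genes rising and 0.0436% falling. At an unadjusted p under 0.05, 16 members were lower (36.4% of members, against 12.4% of all genes) and 0 were higher (against 8.78% of all genes). All 3 conidia libraries lay below all 3 control libraries for 15 members (34.1%, against 17.8% of all genes) and above them for 0 (against 12.0% of all genes). The median difference was −0.36 for the members and −0.07 for all genes; 13 of the 16 lower at unadjusted p were mitosis genes and 1 was an S phase gene, Tyms. The mitosis median was −0.47 and the S phase median −0.15; the difference between the classes was not tested.

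The values by library show where the mitosis genes stood. Birc5 averaged 2.22 ± 0.831 FPKM in conidia and 3.78 ± 0.265 FPKM in control libraries, a difference of −0.60 (SE 0.17, adjusted p = 0.115). Mki67 averaged 1.71 ± 0.491 FPKM in conidia and 2.72 ± 0.115 FPKM in control libraries, a difference of −0.47 (SE 0.14, adjusted p = 0.13). Ccnb2, the Golgi-associated B-type cyclin, averaged 1.5 ± 0.412 FPKM in conidia and 2.99 ± 0.182 FPKM in control libraries and came nearest to the threshold, at −0.69 (SE 0.14, adjusted p = 0.0661). For all 3 the groups did not overlap. Among the S phase genes, Mcm7 and Pcna had almost the same mean in both groups. Mcm7 had 13.6 ± 0.84 FPKM in conidia and 13.8 ± 0.538 FPKM in control libraries. Pcna had 53.0 ± 2.67 FPKM in conidia and 53.4 ± 4.81 FPKM in control libraries. Their differences were −0.02 and −0.01 (n = 3 each, adjusted p = 0.955 and 0.977). Other S phase genes were lower, with Rrm2 at −0.50, Tyms at −0.45 and Gins2 at −0.43 (adjusted p = 0.299, 0.125 and 0.259). For Tyms and Gins2 the groups did not overlap. In all, 12 of the 14 S phase genes lay below 0 and 2 above.

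Conidia replicate 2 stood apart from the other 2 conidia libraries. It was the highest conidia library for 41 of 47 members (87.2%, against 50.1% of all genes tested), and for 21 of 22 mitosis genes. Its summed FPKM of neutrophil markers (S100a8, Ly6g and others) was 2070, against 12500 and 7970 in replicates 1 and 3; without Lcn2, which epithelium also makes, it was 870, against 3080 and 2189. Its B cell marker sum was 128, against 46.7 and 43.3, and its T cell marker sum was 32.0, against 11.6 and 10.6. The difference was not confined to immune cells. Its alveolar type 2 sum was 25900, against 15800 and 16400. Its ciliated cell sum was 481, against 240 and 325, and its fibroblast sum 576, against 401 and 381. Endothelial and monocyte sums lay between those of replicates 1 and 3, and alveolar macrophage, club cell and erythroid sums lay below both. Control libraries had 247 to 363 for neutrophil, 93.0 to 169 for B cell and 22 to 30.7 for T cell markers. Without this library 16 of 44 members fell (36.4%, against 6.38% of all genes), 14 of them among 19 mitosis genes and 0 among 14 S phase genes, with the others Ccnd2 and E2f1. Kif23 then differed by −0.90 (adjusted p = 0.011), Top2a by −0.89 (adjusted p = 0.0195), Birc5 by −0.79 (adjusted p = 0.00887) and Mki67 by −0.61 (adjusted p = 0.023). Leaving out any other single library gave 0 called members. Of all 13761 genes, 0 were then called without conidia replicate 3 or any control replicate, and 1 rose without conidia replicate 1. Without hyphae replicates 1, 2 and 3 in turn, 185, 7 and 91 genes rose and 48, 0 and 10 fell. Omitting conidia replicate 2, the library nearest to control, by its nature enlarges the difference.

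**Figure D4:**
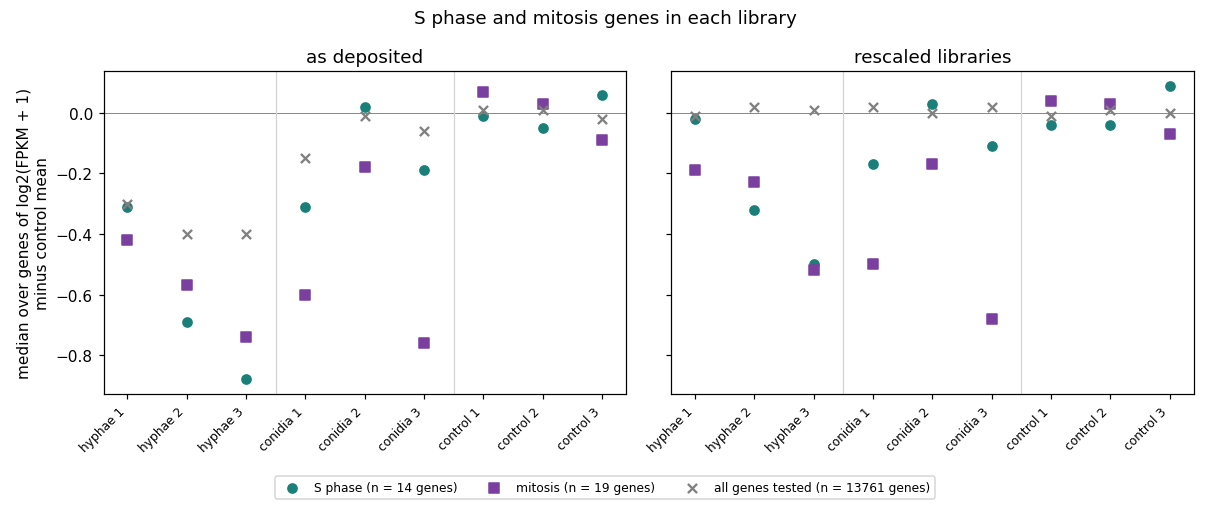
Median over genes of log2(FPKM + 1) minus the control mean, per library, for 14 S phase genes, 19 mitosis genes and all 13761 genes tested, as deposited (left) and after rescaling (right). In conidia libraries 1 and 3 the mitosis median lies at −0.60 and −0.76 and the S phase median at −0.31 and −0.19, whereas conidia library 2 stands at −0.18 and 0.02. In hyphae libraries the classes lie closer together on this scale. The addition of 1 shrinks the differences of mitosis genes more, because most are lower in FPKM, so the gap between the classes depends on it.

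Set side by side over libraries, S phase medians were −0.31, −0.69 and −0.88 in hyphae libraries and −0.31, 0.02 and −0.19 in conidia libraries. Mitosis medians were −0.42, −0.57 and −0.74 in hyphae libraries and −0.60, −0.18 and −0.76 in conidia libraries. S phase medians were thus lower in hyphae replicates 2 and 3 than in any conidia library, while mitosis medians overlapped between the treatments. Most mitosis genes are lower in FPKM than the S phase genes, so the addition of 1 shrinks their differences more. The gap between the classes depends on this, and class medians with a smaller added value were not taken. Medians of all genes tested also differed, at −0.30, −0.40 and −0.40 in hyphae libraries and −0.15, −0.01 and −0.06 in conidia libraries. Rescaled, the S phase medians in hyphae libraries were −0.02, −0.32 and −0.50 and the mitosis medians −0.19, −0.23 and −0.52. In conidia libraries the rescaled S phase medians were −0.17, 0.03 and −0.11 and the mitosis medians −0.50, −0.17 and −0.68. By group means, control was highest and hyphae lowest for 31 of 47 members, and control was highest and conidia lowest for 7. Hyphae were highest for 8, with conidia lowest in 5 of these (Cdc6 among the S phase genes, Ccne2 among the G1 genes, and Mki67, Birc5 and Nusap1 among the mitosis genes) and control lowest in 3 (Mcm4, Cdt1 and Bub1b). These orders were not counted over all genes or after rescaling. The median differences of all genes from control, −0.07 in conidia and −0.37 in hyphae, had the same order as the 31 members.

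Hyphae were set against conidia to ask which division genes separated the 2 fungal forms. Of 44 members 5 were higher after hyphae (11.4%, against 12.7% of all genes) and 12 were lower (27.3%, against 42.5% of all genes). After rescaling 11 were higher (25%, against 25.4%) and 5 lower (11.4%, against 25.4% of all genes). The 5 higher genes were Mcm4 and Cdt1 of S phase and Mki67, Birc5 and Nusap1 of mitosis, and they were higher on both scales. Without conidia replicate 2, 9 members were higher (against 12.4% of all genes), and without hyphae replicate 2, 6 were lower (against 33.6% of all genes). Birc5 had 4.74, 4.98 and 4.96 FPKM in hyphae libraries, against 2.01, 3.14 and 1.52 FPKM in conidia libraries, with no overlap and a difference of 0.90 (SE 0.17, adjusted p = 0.00213; rescaled 1.17). Nusap1 had 2.45, 2.56 and 2.23 FPKM in hyphae libraries, against 1.19, 1.77 and 1.28 FPKM in conidia libraries, a difference of 0.51 (adjusted p = 0.00664; rescaled 0.74). Mki67 differed by 0.50 (adjusted p = 0.0163; rescaled 0.74), Cdt1 by 0.62 (adjusted p = 0.00243; rescaled 0.91) and Mcm4 by 0.37 (adjusted p = 0.0128; rescaled 0.67).

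Among the 12 that were lower after hyphae than after conidia were 5 S phase genes, 5 G1 genes, E2f2 and a single mitosis gene, Aurka. Mcm7 averaged 5.26 ± 2.15 FPKM in hyphae and 13.6 ± 0.84 FPKM in conidia libraries and differed by −1.27 (SE 0.20, adjusted p = 0.000947; rescaled −0.98). E2f2 averaged 3.31 ± 0.453 FPKM in hyphae and 7.54 ± 1.39 FPKM in conidia libraries and differed by −0.98 (SE 0.14, adjusted p = 0.00064; rescaled −0.71). Ccnd1 averaged 34.2 ± 9.25 FPKM in hyphae and 61.6 ± 6.38 FPKM in conidia libraries and differed by −0.86 (SE 0.19, adjusted p = 0.00489; rescaled −0.53). With Uhrf1 (−0.65; rescaled −0.45) and Cdk4 (−0.71; rescaled −0.38) these were the 5 that were lower on both scales. The comparisons share hyphae, conidia or control libraries, so their values for a gene are not independent.

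Further genes of the same pathway were taken from lists made for this purpose. Of 27 other DNA replication genes tested, 19 fell (70.4%, against 50.0% of all genes) and 5 rose (18.5%, against 14.9%) after hyphae against control. After rescaling 14 fell (51.9%, against 29.3%) and 7 rose (25.9%, against 30.0%). Chek1, the replication checkpoint kinase, had 3.16, 2.79 and 3.68 FPKM in hyphae libraries, 0.74, 1.02 and 0.87 FPKM in conidia libraries, and 1.13, 0.92 and 0.89 FPKM in control libraries and rose by 1.08 (adjusted p = 0.000138; rescaled 1.36). Mcm10, a replication initiation factor, rose by 0.98 (rescaled 1.26), whereas the primase subunit Prim1 fell by 1.25 (rescaled −0.96) and the helicase partner Gins4 by 1.05 (rescaled −0.67). Of 33 other mitosis genes, 20 fell (60.6%) and 0 rose, and after rescaling 11 fell (33.3%, near the 29.3% of all genes) and 3 rose (9.09%). Hjurp, a chaperone of centromeric histone, fell by 1.41 (rescaled −1.01) and the condensin subunit Ncapd2 by 1 (rescaled −0.69).

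The brakes of the cycle moved in both directions. Of 20 CDK inhibitor and checkpoint genes, 9 rose (45%, against 14.9% of all genes) and 9 fell (45%, against 50.0%) after hyphae against control. After rescaling 9 rose (45%, against 30.0%) and 6 fell (30%, near the 29.3% of all genes). Cdkn1a, which encodes the CDK inhibitor p21, had 679.7, 776 and 713 FPKM in hyphae libraries, 228, 74.8 and 177 FPKM in conidia libraries, and 44.5, 40.4 and 42.9 FPKM in control libraries; the groups did not overlap, and it rose by 4.05 after hyphae (SE 0.34, adjusted p = 4.37e-05; rescaled 4.48). Gadd45g, a stress gene that inhibits Cdk1, had 133, 169 and 304 FPKM in hyphae libraries, 87.4, 33.6 and 80.8 FPKM in conidia libraries, and 14.6, 15.5 and 10.5 FPKM in control libraries and rose by 3.73 (adjusted p = 0.000114; rescaled 4.15). Gadd45b, of the same family, rose by 2.64 (adjusted p = 0.000358; rescaled 3.07). The inhibitor Cdkn2d, of the INK4 family, named for its difference between hyphae and conidia (1.62, adjusted p = 4e-04; rescaled 1.95), had 33.5, 54.7 and 66.8 FPKM in hyphae libraries, 16, 14.1 and 16.3 FPKM in conidia libraries, and 8.45, 7.91 and 9.6 FPKM in control libraries and rose by 2.40 (adjusted p = 5.54e-05; rescaled 2.80). Its family member Cdkn2c had 5.87, 5.57 and 6.55 FPKM in hyphae libraries, 7.84, 12.8 and 11.3 FPKM in conidia libraries, and 18.4, 18.1 and 14.4 FPKM in control libraries and fell by 1.36 (adjusted p = 0.000204; rescaled −0.97). Trp53, the gene of p53, had 14.3, 10.9 and 10.7 FPKM in hyphae libraries, 34.3, 35.1 and 32.6 FPKM in conidia libraries, and 32, 30.7 and 35.3 FPKM in control libraries and fell by 1.39 (adjusted p = 4.13e-05; rescaled −0.98).

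The list of RB, E2F and DREAM regulators also held Myc family genes, Cdc25 phosphatases, Cdk7 and Ccnh. Of its 21 tested genes, 2 rose (9.52%, against 14.9% of all genes) and 12 fell (57.1%, against 50.0%) after hyphae against control. The 2 that rose were Myc and Mycn, so no RB, E2F or DREAM gene proper rose as deposited. After rescaling 5 rose (23.8%, against 30.0%) and 8 fell (38.1%, against 29.3%). Myc, a driver of growth and G1 entry, had 24.2, 32 and 52.3 FPKM in hyphae libraries, 19.96, 9.32 and 12.9 FPKM in conidia libraries, and 5.84, 3.52 and 5 FPKM in control libraries and rose by 2.63 (adjusted p = 0.000204; rescaled 3.02). Mycn rose by 1.02 (adjusted p = 0.0149; rescaled 1.29), and Mycl fell by 1.84 (adjusted p = 0.0031; rescaled −1.52). The repressor E2f6 had 2.57, 2.24 and 2.33 FPKM in hyphae libraries, 7.16, 9.57 and 7.68 FPKM in conidia libraries, and 9.36, 9.12 and 9.28 FPKM in control libraries and fell by 1.60 (adjusted p = 2.56e-05; rescaled −1.26).

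After conidia against control, none of these 4 lists had a called gene. Cdkn1a differed by 1.74 (adjusted p = 0.0582), Gadd45g by 2.13 (adjusted p = 0.0548) and Myc by 1.34 (adjusted p = 0.0865), and conidia replicate 2 had the lowest value of the 3 conidia libraries for each. Between hyphae and conidia, where 12.7% of all genes were higher and 42.5% lower (25.4% each way when rescaled), 6 of 27 replication genes were higher and 16 lower (rescaled, 7 and 8). Of 33 mitosis genes 2 were higher and 7 lower (rescaled, 6 and 7), and of 20 inhibitor and checkpoint genes 8 and 9 (rescaled, 9 and 4). Of the 21 genes listed with RB, E2F and DREAM, Myc family included, 2 were higher and 12 lower (rescaled, 3 and 8). Chek1 and Dbf4, the activator of the Cdc7 kinase, were higher after hyphae than after conidia by 1.16 and 0.98 (rescaled 1.40 and 1.27), as were the kinetochore gene Spc25 and the CDK-binding gene Cks2 by 0.68 and 0.64 (rescaled 0.95 and 0.95).

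**Figure D5:**
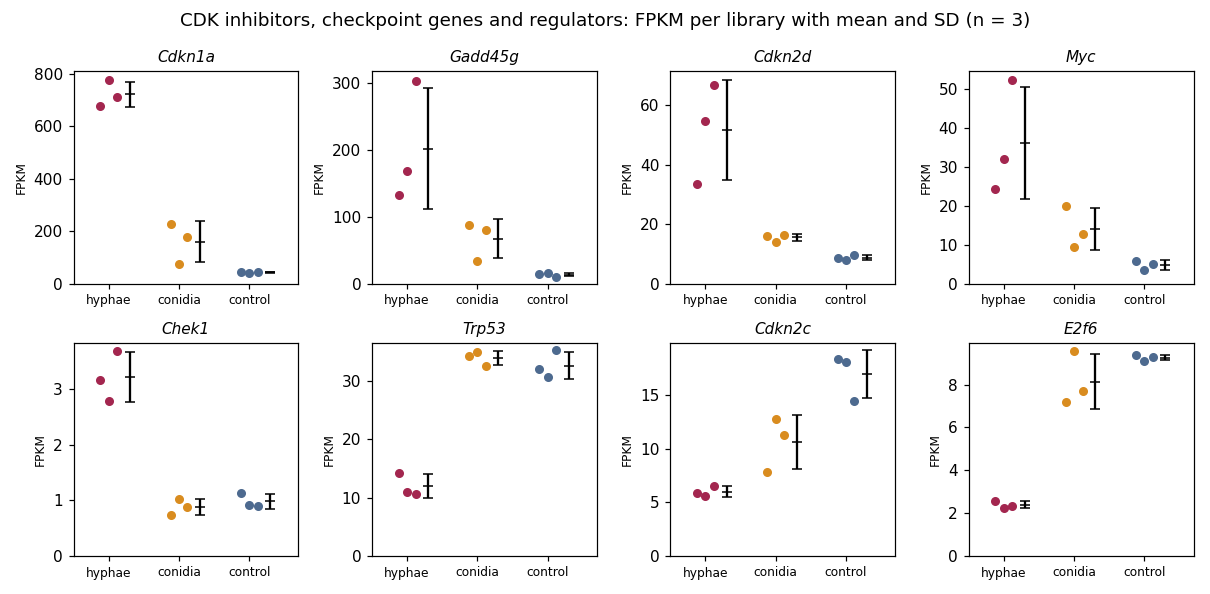
FPKM of 8 inhibitors, checkpoint genes and regulators in each library (points), with the mean and SD of the 3 libraries of a group; each vertical axis starts at 0. Cdkn1a, Gadd45g, Cdkn2d, Myc and Chek1 were highest in all hyphae libraries, and Trp53, Cdkn2c and E2f6 were lowest there.

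Markers of several other cell types moved with these groups, and their part in the results was not tested. Others had few calls after hyphae against control. Of 9 alveolar macrophage markers 1 fell and 0 rose (rescaled, 0 and 2). Of 6 fibroblast markers 1 fell and 1 rose (rescaled, 0 and 1). Their median differences were −0.31 and −0.52, against −0.37 for all genes, and 5 of the 6 fibroblast markers lay below 0. None of 5 erythroid markers was called, and their sums varied within groups. They were 8890 to 17300 FPKM in hyphae, 7650 to 9060 in conidia and 2320 to 18500 in control libraries. Neutrophil markers (10 genes) summed to 1340 to 7420 FPKM in hyphae, 2070 to 12500 in conidia and 247 to 363 in control libraries. Lcn2 made up most of the conidia sums, and the other 9 markers summed to 620 to 5066 FPKM in hyphae, 870 to 3080 in conidia and 80.2 to 146 in control libraries, so the highest hyphae library then exceeded the highest conidia library. Markers of dividing neutrophil precursors (Mpo, Elane, Prtn3 and Ctsg) summed to 0.42 to 1.03 FPKM in hyphae, 0.81 to 2.14 in conidia and 0.36 to 1.53 in control libraries; none passed the filter, and Mpo, Elane and Ctsg were at 0 in at least 1 library. B cell markers summed to 22.3 to 59.0 FPKM in hyphae, 43.3 to 128 in conidia and 93.0 to 169 in control libraries, and 6 of 7 tested fell after hyphae (rescaled, 3). T cell markers summed to 8.51 to 14.9 in hyphae, 10.6 to 32.0 in conidia and 22 to 30.7 in control libraries, and 5 of 6 tested fell after hyphae (rescaled, 4). Monocyte markers summed to 42.5 to 81 in hyphae, 86.4 to 104 in conidia and 64.3 to 96.4 in control libraries, and 4 of 6 fell after hyphae (rescaled, 3, with 1 higher); of all genes 50.0% fell, or 29.3% rescaled. All 6 ciliated cell and all 5 club cell markers fell after hyphae (rescaled, 5 and 2). Alveolar type 2 and endothelial markers, which name the lung, had sums of 15800 to 30300 and 831 to 1270 FPKM, but single markers moved. Of 8 type 2 markers, 3 fell and 0 rose after hyphae against control (rescaled, 2 and 3). Of 8 endothelial markers, 2 fell and 3 rose (rescaled, 1 and 3). Sox18 had 1.94, 2.38 and 1.78 FPKM in hyphae libraries and 64.9, 103 and 67.1 FPKM in control libraries. The whole-lung share of Scgb1a1, the club cell secretory protein, was 5.40 to 6.74% of summed FPKM in hyphae, 8.11 to 11.5% in conidia and 11.4 to 19.7% in control libraries.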

How the data were processed

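Whole-lung poly(A) RNA was sequenced 24 hours after inoculation, with 3 libraries in each of 3 groups. The authors deposited FPKM (fragments per kilobase of transcript and library size), per the file headers, 1 file per library. HISAT, Bowtie2 and mm9 are named without roles or versions, per the submitters' processing notes. The tool that computed FPKM and the annotation are not given in the sources used here. Depth was estimated from the spacing of the lowest values with an assumed fragment length of 150 bases.

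In R 4.3.3, values were set to log2(FPKM + 1). Genes that reached 1 FPKM in 3 or more of the 9 libraries were kept (13761), and limma 3.58.1 (trend, robust moderation) was fitted to all 9 libraries with 1 term per group. Tests were two-sided and adjusted by Benjamini and Hochberg over all genes tested. Alternatives were rescaling (median of ratios, or equal FPKM sums), a pseudocount of 0.1, no filter or 5 FPKM, no robust moderation, 2 groups only, a replicate block, and leaving out each library. Values per library were given for the genes of a written rule: helicase subunits, main S phase, mitosis and G1 genes, the transcription factors, and the largest changes. From each further pathway list, up to 2 called genes per direction in each comparison were named, plus Cdkn1a; Gadd45b was added after its values were seen. The members, lists and rule were chosen with earlier results of these data known. RefSeq promoters were of GRCm38.p6.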

Additional observations from a re-analysis of the deposited data

How the results depend on the processing

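No member was called between conidia and control under any planned setting except without conidia replicate 2. Leaving out single libraries gave 0 to 16 lower and 0 higher members. Over all 13761 genes these fits gave 0 to 878 lower and 0 to 657 higher. For hyphae against control, rescaling by median-of-ratios factors changed the counts from 2 to 7 higher and from 28 to 13 lower. Over all genes it changed them from 2045 to 4132 higher and from 6886 to 4035 lower. The filter of 5 FPKM, which left 17 members, gave 12 lower, and 5071 lower over all genes it kept. The share of all genes under this filter was not computed, so these counts cannot be compared. Leaving out libraries gave 2 to 3 higher and 19 to 30 lower of 44 members. Over all 13761 genes these fits gave 1682 to 2078 higher and 5997 to 6969 lower. Without hyphae replicate 2, 19 members and 5997 genes were lower, so the share of members was then near that of all genes. Of the 30 called members, 20 kept their call in all 9 fits. Pcna, Mcm6, Rrm2, Gins2, Ccnb1, Cdk1, Aurkb, Kif11, Ccnd3 and Cdk2 did not. How many calls over all genes were kept was not counted, here or for hyphae against conidia. For hyphae against conidia, rescaling gave 11 higher and 5 lower, the filter of 5 FPKM gave 2 higher, and leaving out libraries gave 4 to 9 higher (9 without conidia replicate 2) and 6 to 13 lower (6 without hyphae replicate 2). Over all genes, rescaling gave 3496 higher and 3492 lower, and the filter gave 1504 higher, again without a share of the genes kept. Leaving out libraries gave 1339 to 1739 higher and 4619 to 6183 lower over all genes. There 10 of 17 calls were kept: Mcm2, Mcm4, Mcm7, Cdt1, Birc5, Nusap1, Ccnd1, Ccnd2, Cdk4 and E2f2.

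Rescaling reversed the sign of small differences. For hyphae against control these became 0.06 (Cdk2), 0.34 (Cdk6), 0.06 (Foxm1), 0.03 (Mcm3), 0.18 (Plk1), 0.11 (Tyms) and 0.08 (Ube2c). For hyphae against conidia they became 0.03 (Ccnb1), 0.06 (Ccne1), 0.13 (Cdk1), 0.06 (Gins2), 0.09 (Kif23), 0.10 (Mcm3) and 0.08 (Prc1). For conidia against control they became 0.04 (Ccnd3), 0.02 (Cdc6), 0.07 (Mcm7) and 0.09 (Pcna). Equal FPKM sums gave 0.01 (Ccnd3), 0.01 (Cdc6), 0.03 (Mcm7) and 0.05 (Pcna) for conidia against control and 0.05 (Cdk6) for hyphae against control.

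Leaving out single libraries also reversed signs near 0. For conidia against control the ranges were −0.14 to 0.09 (Ccnd3), −0.14 to 0.11 (Cdc6), −0.03 to 0.14 (Cdk2), −0.05 to 0.08 (Cdt1), −0.03 to 0.10 (Mcm4), −0.07 to 0.02 (Mcm7) and −0.05 to 0.06 (Pcna). For hyphae against control they were −0.02 to 0.21 (Ccne2), −0.11 to 0.05 (Cdk6) and −0.03 to 0.09 (Mki67). For hyphae against conidia they were −0.32 to 0.09 (Aurkb), −0.05 to 0.19 (Bub1b), −0.23 to 0.13 (Ccnb1), −0.04 to 0.19 (Ccnb2), −0.20 to 0.05 (Ccne1), −0.25 to 0.16 (Cdk1), −0.18 to 0.29 (E2f1), −0.40 to 0.04 (Gins2), −0.30 to 0.03 (Kif11), −0.24 to 0.12 (Kif23), −0.27 to 0.01 (Prc1) and −0.03 to 0.38 (Ube2c). The causes of these changes were not tested.

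The labels number replicates 1 to 3 in each group. Deviations of same-numbered libraries had correlations of −0.31 to 0.42, and those of other pairs between groups −0.54 to 0.30. With 3 libraries in a group, these values cannot settle whether the numbers mark a pairing. With the replicate number as a block, the counts were 0 higher and 0 lower for conidia against control, 2 and 28 for hyphae against control, and 5 and 13 for hyphae against conidia. Over all genes the same fits gave 50 and 7, 1925 and 6637, and 1629 and 5529. The files hold no counts, so the counting error of members near 1 FPKM could not be given.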
